A study of Mus musculus with 12 samples.

Results

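The genes described here encode the CD4 and CD8 coreceptors and the transcription factors that set the choice between the CD4 and CD8 T cell lineages. The 6 genes, of 35907 with a value, were listed by symbol: Cd4, Cd8a, Cd8b1, Zbtb7b, Runx3 and Runx1. The list itself uses no measured value, but it was chosen with earlier results of these data known. RNA was sequenced from 12 mouse libraries, 3 in each of 4 groups. The groups were WT Pre-Tx and TCF-1 cKO Pre-Tx, T cells sorted from the spleens of young adult donors, and WT Post-Tx and TCF-1 cKO Post-Tx, donor T cells sorted back from recipient spleens at day 7. TCF-1 cKO mice are Tcf7 flox/flox crossed with CD4cre, on C57BL/6. Cre is driven by the Cd4 promoter, so Tcf7, the gene of TCF-1, is deleted from the double-positive thymocyte stage on in CD4 and CD8 T cells alike. Both Post-Tx groups came from lethally irradiated BALB/c recipients given CD3 donor T cells together with T cell-depleted WT bone marrow, and they were sorted as H2Kb+ cells. The Pre-Tx cells came from 3 different mice of each genotype. Which animals gave each Post-Tx library is not stated, so the p values measure the spread between these libraries.

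CD4 and CD8 bind MHC class II and class I molecules beside the T cell receptor and bring the kinase Lck to it. CD8 is a dimer of the chains CD8 alpha, from Cd8a, and CD8 beta, from Cd8b1. In the thymus, double-positive cells carry both coreceptors, and Zbtb7b, which encodes ThPOK, is needed for the CD4 lineage and represses CD8 lineage genes. Runx3 acts for the CD8 lineage and silences Cd4 through the Cd4 silencer, whereas Runx1 represses Cd4 at the earlier double-negative stage. RUNX factors bind DNA with the partner CBF beta, and TCF-1 is known to act upstream of Zbtb7b and with RUNX3 in T cells. Cd8a without Cd8b1 is also made by some dendritic cells, and Cd4 by some dendritic cells and macrophages.

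The library totals ranged from 17103415 to 49486745 estimated counts. The sample labels call all 12 libraries CD4 T cells, while the series text names CD8 T cells before transplant and CD4 and CD8 T cells after it. The markers went against a pure CD4 T cell sort in the Pre-Tx libraries. The summed level of 13 B cell markers was 7914 to 11102 CPM (estimated counts scaled to the library total) in the Pre-Tx libraries and 65.2 to 155 CPM in the Post-Tx libraries. The 12 T cell markers summed to 1747 to 3681 CPM before and 5924 to 9362 CPM after transplant. The targeted gene Tcf7 stood at 136 to 179 CPM in TCF-1 cKO and 112 to 197 CPM in WT Pre-Tx libraries, and at 109 to 146 CPM in TCF-1 cKO and 145 to 171 CPM in WT Post-Tx libraries. These counts cover the whole gene and do not isolate the floxed part. The groups are therefore named by their labels below, without a statement on which T cell subset each holds. In such bulk samples, fewer cells of a type and less RNA per cell cannot be told apart.

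Per transcript length, Cd8b1 was the highest of the 6 genes before transplant and Cd4 after it. On the TPM scale, which corrects for length, Cd8b1 had the highest level of the 6 in every Pre-Tx library, from 172 to 248.5 TPM. Cd4 stood at 19.9 to 51.1 TPM and Cd8a at 35.1 to 76.7 TPM in the same 6 libraries. Cd4 exceeded Cd8a only in the first TCF-1 cKO Pre-Tx library, with 47.0 against 39.5 TPM. This order is that of gene sums, which include retained-intron transcripts, described below. Such a transcript took most of the Cd8a TPM before transplant. For protein-coding transcripts alone, Cd4 stood above Cd8a in each of these 6 libraries. After transplant Cd4 reached 263 to 454 TPM, Cd8b1 14.3 to 39.4 TPM and Cd8a 0.416 to 7.09 TPM. Runx3 was above Runx1 and Zbtb7b in all 6 Post-Tx libraries, from 31.8 to 51.8 TPM. The order of Runx1 and Zbtb7b overlapped in that stage, at 14.4 to 24.9 and 11.98 to 20.5 TPM.

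**Figure D1:**
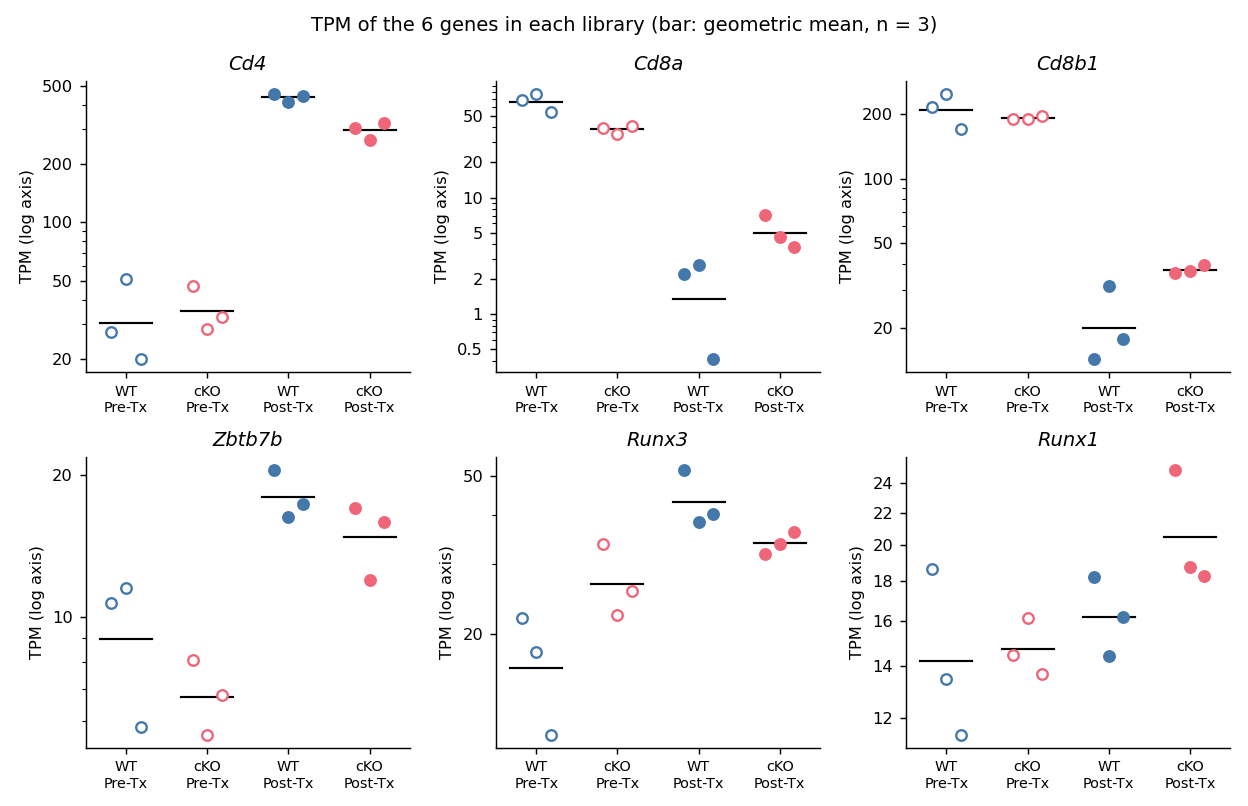
TPM of the 6 genes in each of the 12 libraries, on log axes that differ between panels; open points are Pre-Tx, filled points Post-Tx, blue WT and red TCF-1 cKO, and bars are geometric means of 3 libraries. Cd4 rises from 19.9 to 51.1 TPM before transplant to 263 to 454 TPM after it, while Cd8a and Cd8b1 fall, and the lowest Cd8a point is the third WT Post-Tx library at 0.416 TPM.

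Cd4 lies on chromosome 6 (chr6:124864692-124888221, minus strand, GRCm38). In the Pre-Tx libraries Cd4 was 89.0, 151 and 68.7 CPM in WT and 82.5, 65.4 and 86.5 CPM in TCF-1 cKO. The genotypes overlapped, and the second WT library was the highest. The log2 fold change of TCF-1 cKO against WT was -0.43 (standard error, SE, 0.30; edgeR adjusted p = 0.322). In the Post-Tx libraries Cd4 was 1139, 1095 and 1164 CPM in WT and 818, 709 and 856 CPM in TCF-1 cKO, so all TCF-1 cKO values lay below all WT values. Cd4 fell by 0.90 on the log2 scale (SE 0.22, adjusted p = 0.0315 from edgeR). It was the only one of the 6 genes called between the genotypes after transplant, where 6.65% of the 19287 genes tested were called, 3.52% higher and 3.13% lower. The call was lost without TCF-1 cKO Post-Tx replicate 2 (adjusted p = 0.158), replicate 3 (0.0828), WT Post-Tx replicate 1 (0.0997) or replicate 3 (0.0984). It held in 5 of 10 other settings. With counts scaled to library totals alone it was lost (log2 fold change -0.51, adjusted p = 0.0544, the value changing by more than 1.5-fold). The call was also lost with upper-quartile scaling (-0.62, adjusted p = 0.051) and all 12 libraries in 1 edgeR fit (-0.91, adjusted p = 0.0722). Limma on log2(TPM + 1) and log2(TPM + 0.1) gave -0.56 for each (adjusted p = 0.0665 and 0.0712). In the same comparison the T cell markers Cd3e, Cd3d, Cd3g and Cd247, chains of the CD3 complex, had log2 fold changes of -0.97, -0.83, -0.87 and -1.16.

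Cd8a lies on the same chromosome (chr6:71373427-71379173, plus strand). Before transplant Cd8a was 165, 166 and 130.02 CPM in WT and 79.3, 71.4 and 81.7 CPM in TCF-1 cKO. All TCF-1 cKO values lay below all WT values. Cd8a fell by 1.02 on the log2 scale (SE 0.21, adjusted p = 0.0154 from edgeR). It was the only one of the 6 genes called, where 14.2% of 17021 genes tested were called, 8.52% higher and 5.65% lower. The call was lost without any 1 of TCF-1 cKO Pre-Tx replicates 1, 2 and 3 (adjusted p = 0.0587, 0.0674 and 0.0541) or WT Pre-Tx replicate 1 (0.0816). It held in 7 of 10 other settings. Limma on log2(TPM + 1) and log2(TPM + 0.1) gave -0.76 and -0.77 (adjusted p = 0.0574 and 0.0596). With all 12 libraries in 1 edgeR fit the value was -0.98 (adjusted p = 0.0907). Of the T cell markers, 7 of 12 were lower in the same comparison, among them Cd3e at -1.27 and Cd3d at -1.20, while 7 of 13 B cell markers were higher. The ratio of Cd8a to the CD3 chains is given later.

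After transplant the order of Cd8a between the genotypes was the opposite. It was 4.65, 7.00 and 1.04 CPM in WT and 15.4, 12.1 and 10.3 CPM in TCF-1 cKO Post-Tx libraries. The values did not overlap, but they were low: the third WT library held 42.0 estimated Cd8a counts and the other 5 libraries 189 to 278. The log2 fold change was 1.22 (SE 0.60, adjusted p = 0.163 from edgeR), and 0.73 without WT Post-Tx replicate 3 (adjusted p = 0.418). The interaction, which compares the genotype effect after transplant with that before, was 2.24 for Cd8a (SE 0.57, adjusted p = 0.0117 from edgeR), and 28.6% of 21434 genes tested had a called interaction, 17.1% above and 11.5% below 0. It stayed called in all 12 fits that left out 1 library, with adjusted p from 0.00691 to 0.0299. The 10 conventional dendritic cell markers summed to 95.4 to 99.9 CPM in TCF-1 cKO and 55.2 to 112 CPM in WT Post-Tx libraries. Of these, Clec9a, a marker of CD8 alpha dendritic cells, was under 1 CPM in every WT Post-Tx library and at 0.167, 4.22 and 0.375 CPM in TCF-1 cKO. Clec9a was not among the 8 of these markers tested between genotypes after transplant, of which edgeR called 0. Xcr1, another marker of CD8 alpha dendritic cells, was 12.03, 15.3 and 15.3 CPM in TCF-1 cKO and 8.35, 13.4 and 7.66 CPM in WT. Their part in the Cd8a level was not tested.

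Cd8b1 lies beside Cd8a (chr6:71322788-71337494, plus strand). It followed Cd8a in direction, with smaller differences. Before transplant it was 308, 325 and 256 CPM in WT and 223, 229.9 and 239 CPM in TCF-1 cKO, all TCF-1 cKO values lower. After transplant it was 15.8, 35.3 and 20.0 CPM in WT and 42.2, 44.2 and 45.6 CPM in TCF-1 cKO, all TCF-1 cKO values higher. The log2 fold changes were -0.39 before (SE 0.19, adjusted p = 0.167) and 0.53 after transplant (SE 0.31, adjusted p = 0.229), and the interaction was 0.88 (SE 0.33, adjusted p = 0.0534, edgeR), so none was called. With upper-quartile scaling the change before transplant (-0.75, adjusted p = 0.0269) and the interaction (1.53, adjusted p = 0.0058) were called. The interaction was also called with library totals alone (1.26, adjusted p = 0.0195) and by voom with limma (0.96, adjusted p = 0.0493). Without WT Post-Tx replicate 2, which had the highest Cd8b1 of that group, the interaction was 1.12 (adjusted p = 0.0186).

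The coreceptors moved furthest with transplant, in opposite directions. In WT, Cd4 rose by 3.38 on the log2 scale (SE 0.29, adjusted p = 3.26e-07), Cd8a fell by 5.33 (SE 0.47, adjusted p = 4.35e-07) and Cd8b1 fell by 3.76 (SE 0.26, adjusted p = 2.44e-08, edgeR). In TCF-1 cKO, Cd4 rose by 2.86 (SE 0.29, adjusted p = 2e-06), Cd8a fell by 3.10 (SE 0.43, adjusted p = 6.35e-05) and Cd8b1 fell by 2.88 (SE 0.25, adjusted p = 3.78e-07, edgeR). These 6 calls held in every alternative fit and in every fit without 1 library. In all, 4 of the 6 genes were called in WT, 2 higher and 2 lower, where 22.0% of 21434 genes were, 11.6% higher and 10.4% lower. In TCF-1 cKO 3 were called, 1 higher and 2 lower, where 26.7% of genes were, 14.2% higher and 12.5% lower. Day, host, cell state and the cells sorted all differ between the stages and cannot be told apart. The transplant and genotype comparisons share libraries, so their values for a gene are not independent. The interaction of Cd4 was -0.52 (SE 0.38, adjusted p = 0.296, edgeR), and without WT Pre-Tx replicate 2 it was -1.004 (adjusted p = 0.0214).

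**Figure D2:**
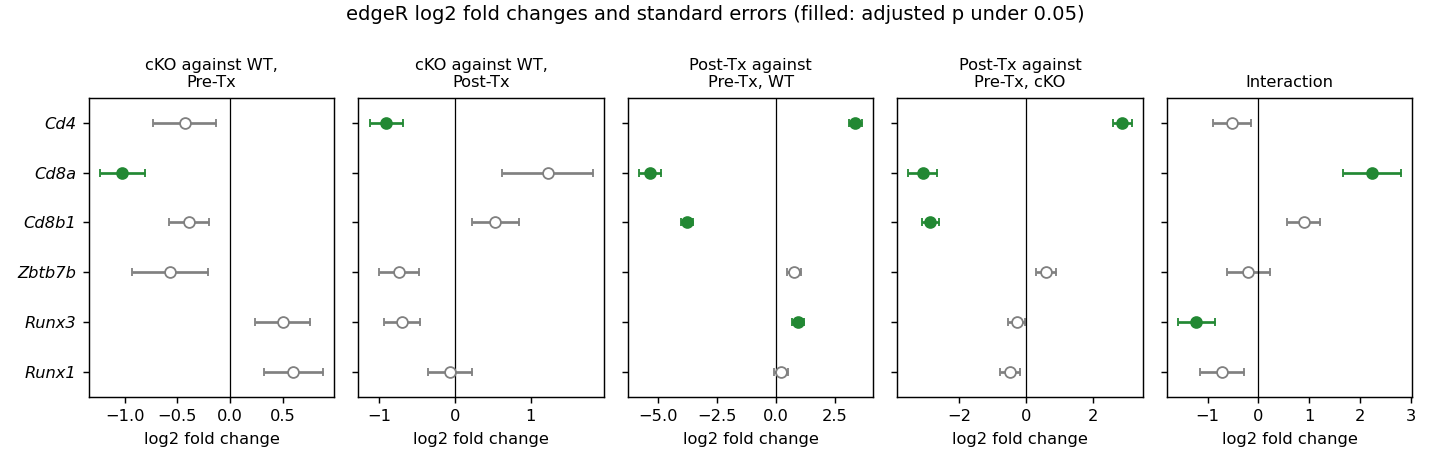
edgeR log2 fold changes (points) with standard errors (lines) of the 6 genes in 5 comparisons, each panel with its own axis; filled green points had an adjusted p under 0.05. Only Cd8a (-1.02, Pre-Tx) and Cd4 (-0.90, Post-Tx) were called between genotypes, and the largest changes were those of the coreceptors with transplant.

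The ratio of Cd4 to Cd8a counts within a library needs no scaling between libraries. It was 0.540, 0.907 and 0.528 in the WT Pre-Tx libraries and 1.04, 0.917 and 1.06 in TCF-1 cKO Pre-Tx libraries. It was 245, 156 and 1103 in the WT Post-Tx libraries and 52.9, 58.5 and 83.2 in TCF-1 cKO Post-Tx libraries. The highest value, in the third WT library, rests on the 42.0 Cd8a counts named above. The mean log2 ratio in TCF-1 cKO was higher than in WT by 0.66 before transplant and lower by a difference of -2.45 after it (-1.62 without WT Post-Tx replicate 3), and the genotypes did not overlap at either stage. Before transplant they were separated by a narrow margin, since the second WT library (0.907) stood next to the second TCF-1 cKO library (0.917). Each of these has an exact two-sided permutation p = 0.1, the smallest that 3 against 3 libraries can give (0.15 after Benjamini-Hochberg adjustment over 9 ratios). The Cd4 counts include a short retained-intron transcript, described below. Its share of Cd4 TPM was larger in TCF-1 cKO than in WT Pre-Tx libraries. Without it, the TPM of the transcript that encodes CD4, given below, was set against Cd8a TPM. The genotypes then overlapped before transplant, with the second WT library slightly above the first and second TCF-1 cKO libraries. The narrow separation before transplant therefore holds only for values that include the short transcript, and the ratio without it was not tested. Across both genotypes the log2 ratio was 7.54 higher after transplant (exact permutation p = 0.005, the smallest possible; adjusted p = 0.00643), higher in 6 of 6 Post-Tx libraries than in any Pre-Tx library.

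**Figure D3:**
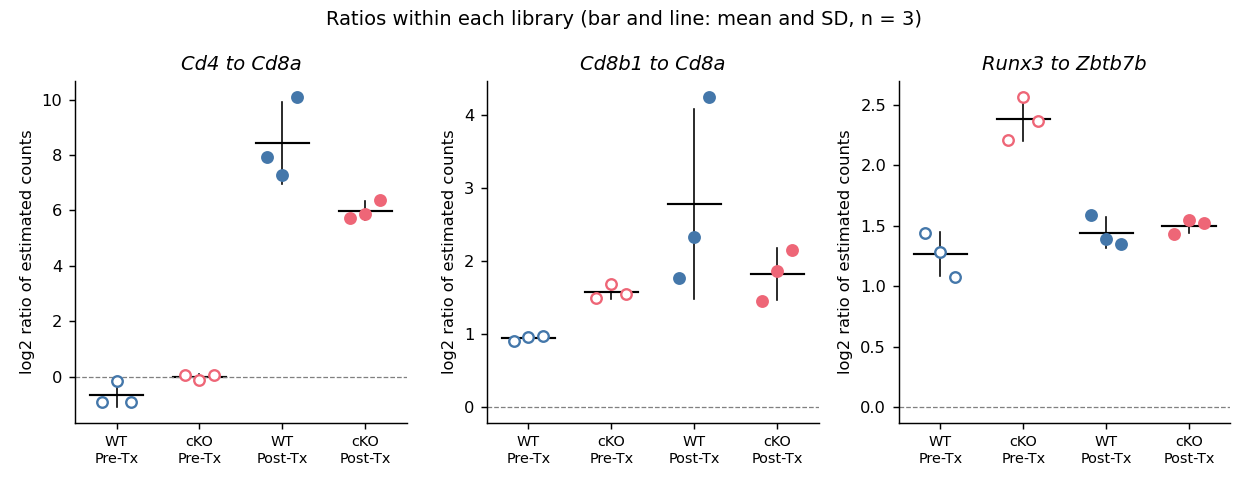
log2 ratios of estimated counts within each library for Cd4 to Cd8a, Cd8b1 to Cd8a and Runx3 to Zbtb7b; open points are Pre-Tx, filled points Post-Tx, blue WT and red TCF-1 cKO, with mean and SD of 3 libraries and a dashed line at equal counts. The Cd4 to Cd8a ratio lies near 0 before transplant and between 5.73 and 10.1 after it, and the Runx3 to Zbtb7b ratio is highest in TCF-1 cKO Pre-Tx libraries.

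The chains of CD8 were not in constant proportion. The Cd8b1 to Cd8a count ratio was 1.86, 1.95 and 1.97 in WT Pre-Tx libraries and 2.81, 3.22 and 2.93 in TCF-1 cKO Pre-Tx libraries. All 3 TCF-1 cKO ratios were higher, by 0.63 in mean log2 ratio (exact permutation p = 0.1, adjusted p = 0.15). The Post-Tx values were 3.40, 5.03 and 19.0 in WT and 2.73, 3.65 and 4.44 in TCF-1 cKO, and the genotypes overlapped (exact permutation p = 0.3, adjusted p = 0.386). The mean log2 ratio was 1.04 higher after transplant (exact permutation p = 0.02, adjusted p = 0.0225). Without WT Pre-Tx replicate 1, 2 or 3 it was 1.03, 1.04 and 1.05, with exact permutation p values of 0.07, 0.065 and 0.065 before adjustment, so the call was lost. With protein-coding transcripts alone, an alternative chosen after seeing the data, that difference was -0.10, so it rests on how counts were split among the Cd8a transcripts described below.

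Zbtb7b, the factor of the CD4 lineage, lies on chromosome 3 (chr3:89377644-89394776, minus strand). Before transplant it was 32.4, 29.5 and 22.8 CPM in WT and 26.1, 13.7 and 18.3 CPM in TCF-1 cKO. The Post-Tx values were 54.7, 49.9 and 47.5 CPM in WT and 39.8, 36.7 and 43.5 CPM in TCF-1 cKO. The genotypes overlapped before transplant, and all TCF-1 cKO values were lower after it. The log2 fold changes were -0.57 (SE 0.36, adjusted p = 0.28) and -0.74 (SE 0.27, adjusted p = 0.0808, edgeR). DESeq2 called the change after transplant, at -0.78 with an adjusted p of 0.0296. With transplant the changes were 0.77 in WT (SE 0.30, adjusted p = 0.0713) and 0.57 in TCF-1 cKO (SE 0.30, adjusted p = 0.149, edgeR). The rise in WT was called without TCF-1 cKO Pre-Tx replicate 3 (adjusted p = 0.0324) or WT Pre-Tx replicate 2 (0.039), and in 5 of 10 other settings: DESeq2 (0.0249), library totals alone (0.0451), limma on both TPM scales (0.0281 and 0.0309) and the 6 WT libraries alone (0.04). The rise in TCF-1 cKO was called in 4 of 10: library totals alone (1.05, adjusted p = 0.0148), upper-quartile scaling (0.0181) and limma on both TPM scales (0.0165 and 0.0185).

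Runx3, the factor of the CD8 lineage, lies on chromosome 4 (chr4:135120652-135177990, plus strand). Before transplant it was 87.8, 72.1 and 48.3 CPM in WT and 121, 81.4 and 94.5 CPM in TCF-1 cKO. The Post-Tx values were 165, 131 and 121 CPM in WT and 108, 107 and 125 CPM in TCF-1 cKO. The genotypes overlapped at both stages. The log2 fold change of TCF-1 cKO against WT was 0.50 before (SE 0.26, adjusted p = 0.197) and -0.70 after transplant (SE 0.24, adjusted p = 0.0708, edgeR). The latter was called without WT Post-Tx replicate 2 (adjusted p = 0.0452) and by DESeq2 (0.0326). The interaction was -1.22 (SE 0.36, adjusted p = 0.0213 from edgeR). It was lost without TCF-1 cKO Post-Tx replicate 2 (adjusted p = 0.058) or WT Post-Tx replicate 1 (0.0563), and with upper-quartile scaling (-0.56, adjusted p = 0.192), which also moves the value by more than 1.5-fold. The call was also lost with library totals alone (-0.80, adjusted p = 0.0881) and with limma on both TPM scales (-1.01 and -1.05, adjusted p = 0.0663 and 0.0706). Runx3 rose with transplant in WT by 0.94 (SE 0.26, adjusted p = 0.0144). This was lost without WT Post-Tx replicate 1 (0.77, adjusted p = 0.0778), the highest library. In TCF-1 cKO the change was -0.28 (SE 0.25, adjusted p = 0.398, edgeR), and its sign turned to 0.10 with upper-quartile scaling.

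NK cells also express Runx3, which was not called between the genotypes at either stage. Of 10 NK cell markers, 3 were higher in TCF-1 cKO before transplant (Gzma, Klrb1c and Ncr1), where 8.52% of all genes were higher. The 10 markers summed to 616 to 672 CPM in TCF-1 cKO against 201 to 315 CPM in WT. After transplant 1 of the 7 tested, Prf1, which cytotoxic T cells also make, was lower, where 3.13% of all genes were. Of those not called, Klrb1c stood at -1.25, Gzma at -0.92, Eomes at -0.86 and Klri2 at -0.10 (adjusted p = 0.139, 0.0639, 0.136 and 0.936, edgeR). Ncr1 stood at 1.21 and Klre1 at 0.33 (adjusted p = 0.481 and 0.739, edgeR), and the list median was -0.86. The sums were 216 to 272 CPM in TCF-1 cKO against 327.5 to 477 CPM in WT. The listed markers Klra4, Klra8 and Klra7 were under 1 CPM in every Post-Tx library, and the other markers of the list were not. With transplant in WT, where Runx3 rose, 2 of 10 NK cell markers were higher and 5 lower. Over all genes 11.6% were higher and 10.4% lower. Gzma rose by 1.28 and Prf1 by 0.82 (adjusted p = 0.00835 and 0.0322, edgeR), while Ncr1 fell by 4.46 and Klrb1c by 2.36. The 10 markers summed to a mean of 270 CPM in WT Pre-Tx and 413 CPM in WT Post-Tx libraries. Ncr1 was 91.0, 37.1 and 68.1 CPM in TCF-1 cKO and 9.03, 20.8 and 13.0 CPM in WT Pre-Tx libraries. Their part in the Runx3 values was not tested.

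Runx1 lies on chromosome 16 (chr16:92601466-92826149, minus strand). Before transplant it was 30.9, 36.2 and 22.8 CPM in WT and 44.8, 44.7 and 49.7 CPM in TCF-1 cKO, all TCF-1 cKO values higher. After transplant it was 36.8, 29.9 and 42.2 CPM in WT and 55.5, 40.5 and 40.9 CPM in TCF-1 cKO, with overlap. The log2 fold changes were 0.60 before (SE 0.28, adjusted p = 0.16) and -0.06 after transplant (SE 0.29, adjusted p = 0.888, edgeR). The sign after transplant depended on scaling, since library totals alone gave 0.33. In all, 3 of the 6 genes had groups that did not overlap before transplant, 1 higher and 2 lower in TCF-1 cKO, where 41.4% of genes tested did not overlap (21.2% higher and 20.3% lower). After transplant 4 of 6 did not overlap, 2 higher and 2 lower, where 37.0% of genes did not (30.5% higher and 6.52% lower). The gene TPM of Runx1, which shifts with the split among transcripts of unequal length, overlapped between the genotypes before transplant.

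The ratio of Runx3 to Zbtb7b set the factors of the lineages against each other within a library. It was 2.71, 2.44 and 2.11 in WT Pre-Tx libraries and 4.62, 5.93 and 5.16 in TCF-1 cKO Pre-Tx libraries. After transplant it was 3.01, 2.62 and 2.55 in WT and 2.70, 2.92 and 2.87 in TCF-1 cKO. The ratio was higher in all 3 TCF-1 cKO libraries before transplant, by 1.11 on the log2 scale (exact permutation p = 0.1, the smallest possible, adjusted p = 0.15). After transplant the difference was 0.06 and the values overlapped (exact permutation p = 0.5, adjusted p = 0.562). Between the stages the difference was -0.35 (exact permutation p = 0.09, adjusted p = 0.09).

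Because cells other than T cells were present, each gene was also set against the summed counts of the CD3 chains Cd3d, Cd3e, Cd3g and Cd247. The CD3 sum was lower in TCF-1 cKO at both stages. It was 887, 973 and 938 CPM in WT and 464, 486 and 571 CPM in TCF-1 cKO before transplant, and 3237, 2630 and 2895 CPM in WT and 2046, 1906 and 2087 CPM in TCF-1 cKO after it. Per CD3 chain count, Cd4 after transplant was 0.352, 0.417 and 0.402 in WT and 0.400, 0.372 and 0.410 in TCF-1 cKO. The mean log2 ratios differed by 0.02 (exact permutation p = 0.9, adjusted p = 0.9), so the lower Cd4 did not appear relative to CD3. Cd8a before transplant was 0.186, 0.171 and 0.139 in WT and 0.171, 0.147 and 0.143 in TCF-1 cKO per CD3 chain count. The difference was -0.10 and the groups overlapped (exact permutation p = 0.6, adjusted p = 0.6). Neither value shows that the genotypes were alike, since 3 against 3 libraries leave wide room for a difference.

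Several other genotype differences turned in direction on this scale. Cd4 before transplant was -0.43 in the edgeR fit and 0.56 per CD3 chain count, and Zbtb7b was -0.57 and 0.31, both with overlap on this scale (exact permutation p = 0.3 and 0.5, adjusted p = 0.386 and 0.562). Cd8b1 before transplant turned from all TCF-1 cKO values lower (-0.39) to all higher (0.53). Zbtb7b after transplant turned from all lower (-0.74) to all higher (0.19), and Runx3 after transplant from -0.70 to 0.25. Cd8a after transplant was 0.00144, 0.00267 and 0.000364 per CD3 chain count in WT and 0.00755, 0.00635 and 0.00493 in TCF-1 cKO, a difference in mean log2 ratio of 2.47. Cd8b1 was thus higher in all TCF-1 cKO libraries at both stages, by 1.51 after transplant. Runx1 was higher in all TCF-1 cKO libraries, by 1.54 before and 0.86 after, and Runx3 by 1.42 before transplant. Each of the differences without overlap has an exact permutation p = 0.1 (adjusted p = 0.15), the smallest possible. Between the stages, Cd4 per CD3 chain count was 1.63 higher after transplant and the other 5 genes were lower, from -5.91 for Cd8a to -0.84 for Zbtb7b (exact permutation p = 0.005 and adjusted p = 0.00643 for each). The CD3 chains are themselves lower in TCF-1 cKO, so fewer T cells and less CD3 RNA per T cell cannot be told apart here. Runx1, Runx3 and Cd4 are also expressed by other blood cells.

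**Figure D4:**
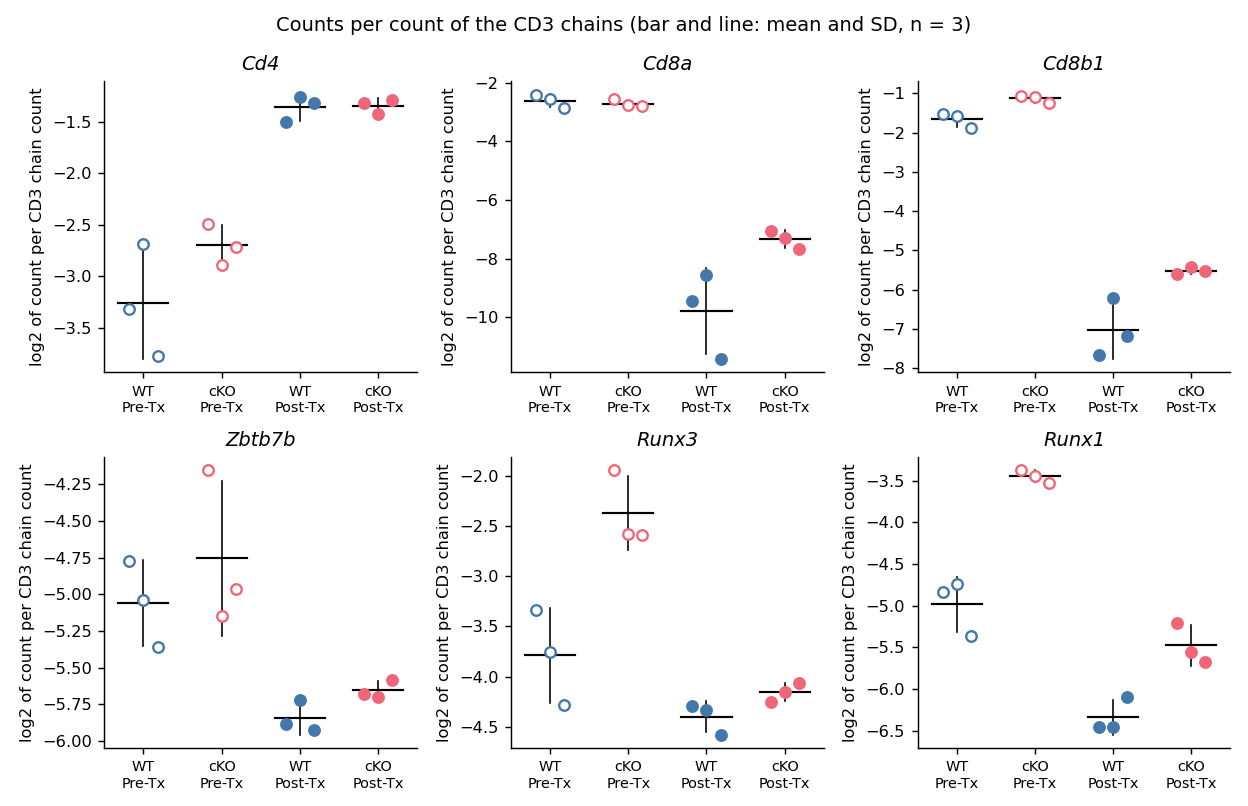
log2 of each gene's estimated count over the summed count of Cd3d, Cd3e, Cd3g and Cd247, by library, with mean and SD of 3 libraries; each panel has its own axis, open points are Pre-Tx, filled points Post-Tx, blue WT and red TCF-1 cKO. Cd4 in the Post-Tx groups lies at -1.36 in WT and -1.35 in TCF-1 cKO, whereas Cd8a lies at -9.80 and -7.34.

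The deposited values are per transcript, and the split among the transcripts of a gene is an estimate. Cd8a has 3 annotated transcripts. Cd8a-201 encodes the full chain. Cd8a-202 lacks exon 4 (31 bases, chr6:71375888-71375918), as in the CD8 alpha form with a shortened cytoplasmic tail. Cd8a-203 keeps intron 1 (505 bases, chr6:71373998-71374502) and ends 1562 bases before Cd8a-201. The sequences below show exon 4, and the end of exon 1 in lower case followed in capitals by exon 2 or by intron 1, on GRCm38.
Cd8a exon 4: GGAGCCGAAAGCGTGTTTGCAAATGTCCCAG
Cd8a exon 1 to exon 2: cagtccttcagaaagTGAACTCTACTACTA
Cd8a exon 1 into intron 1: cagtccttcagaaagGTTTGGAAGTGGAGG

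Cd8a-203 took most of the Cd8a level before transplant in both genotypes. Its share of Cd8a TPM was 70.1%, 73.7% and 73.3% in WT and 69.6%, 70.5% and 76.5% in TCF-1 cKO Pre-Tx libraries. Cd8a-202 took 8.66% to 9.24% in WT and 6.32% to 8.88% in TCF-1 cKO. After transplant Cd8a-203 took 43.5%, 0% and 0% in WT and 50.5%, 4.95% and 0% in TCF-1 cKO, on few counts. Cd8a-203 differs from Cd8a-201 at both ends, and the estimates do not tell whether reads in intron 1 or a shorter 3′ end drew counts to it. The Cd8b1 gene has 1 annotated transcript, so the Cd8b1 to Cd8a ratio turns on the Cd8a side of this split.

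Cd4-201 encodes CD4, and Cd4-202 is a short retained-intron transcript that runs from exon 3 into 566 bases of intron 3. The capitals mark what follows exon 3 in each, on the minus strand.
Cd4 exon 3 to exon 4: gtgtattaattagagGAGGTTCGCCTTCGC
Cd4 exon 3 into intron 3: gtgtattaattagagGTAGGATTCCCTGTC

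Cd4-202 was higher in TCF-1 cKO at both stages. Before transplant it was 0.537, 1.32 and 0.0773 TPM in WT and 22.0, 7.24 and 3.66 TPM in TCF-1 cKO. After transplant it was 2.28, 0.487 and 1.52 TPM in WT and 6.64, 6.87 and 8.37 TPM in TCF-1 cKO. The genotypes did not overlap at either stage. Its share of Cd4 TPM was 46.8%, 25.6% and 11.3% in TCF-1 cKO Pre-Tx libraries and at most 2.61% in the other 9. This transcript was singled out after its values were seen, and no test was made. TCF-1 cKO mice carry both the Tcf7 deletion and the CD4cre transgene, which cannot be told apart in these groups. Whether reads from the transgene were counted to Cd4-202 was not tested. The Cd4-201 transcript alone was 26.2, 47.3 and 19.9 TPM in WT and 23.5, 21.1 and 28.8 TPM in TCF-1 cKO Pre-Tx libraries.

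**Figure D5:**
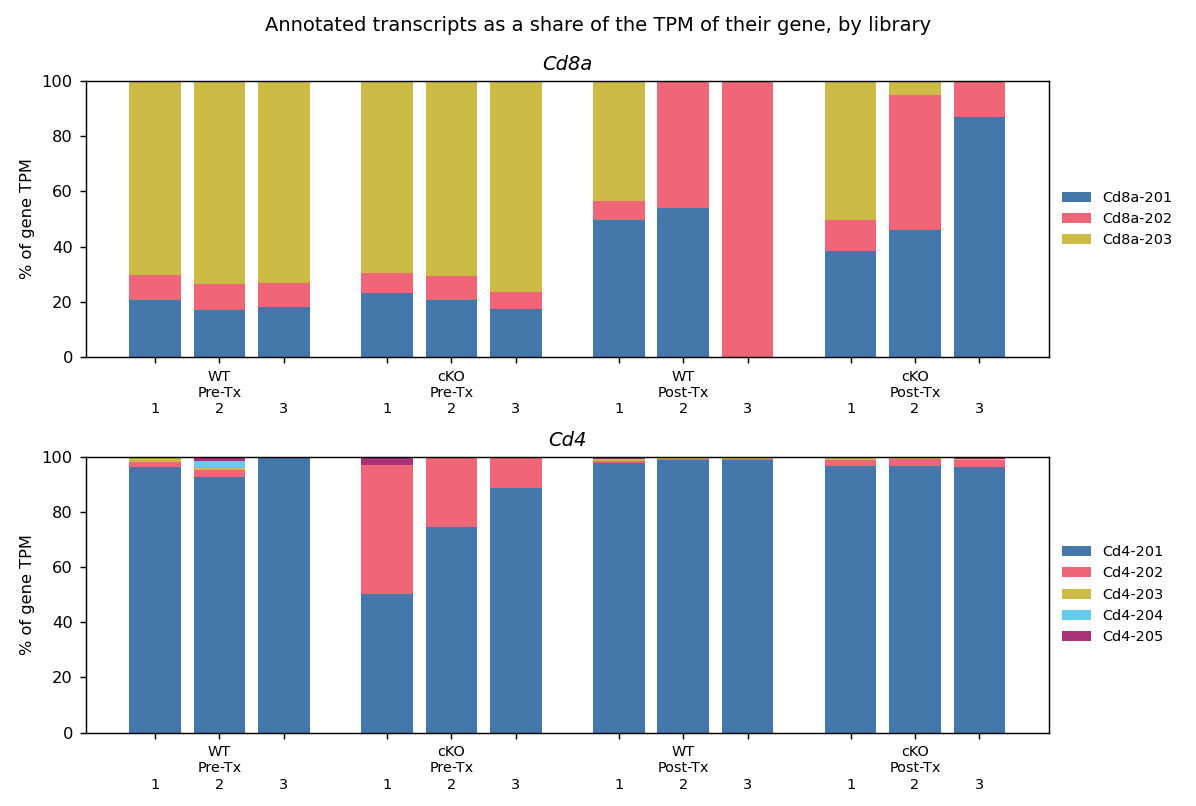
Stacked bars of each annotated transcript as a percent of the TPM of Cd8a (top) and Cd4 (bottom), 1 bar for each library, replicates 1 to 3 in each group. Cd8a-203 holds 69.6% to 76.5% in the Pre-Tx libraries, and Cd4-202 is above 2.61% only in TCF-1 cKO Pre-Tx libraries, at 46.8%, 25.6% and 11.3%.

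Runx3 and Runx1 each have a distal and a proximal start site. Of the Runx3 count, 98.9% to 99.9% came from Runx3-201, the transcript of the distal start, in all 12 libraries. Runx1 used both: transcripts at or within 2000 bases of the distal start took 57.0%, 62.6% and 76.6% of its count in WT and 89.9%, 81.3% and 65.8% in TCF-1 cKO Pre-Tx libraries, with overlap. After transplant they took 47.7% to 63.5% in WT and 60.1% to 70.9% in TCF-1 cKO. The Zbtb7b distal share ranged from 4.92% to 98.1%, and replicates of 1 group differed widely.

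The 250 bases before the distal Runx3 start carry a pair of RUNX letters close together, and the sequence is shown because nearly all Runx3 counts came from this start. The RefSeq promoter tables hold 7 windows of Cd8a, Zbtb7b, Runx3 and Runx1 on GRCm38.p6. Both strands of the upstream 250 bases were searched for the RUNX letters ACCACA and the TCF letters CTTTGA and CTTTGT. Over all 32851 windows, 14.0% held the RUNX letters, 13.8% CTTTGA and 16.5% CTTTGT. The distal Runx3 window (chr4:135120395-135120644, plus strand) held the RUNX letters at 2 places, in capitals below, starting 134 and 126 bases before the start.
Runx3 distal: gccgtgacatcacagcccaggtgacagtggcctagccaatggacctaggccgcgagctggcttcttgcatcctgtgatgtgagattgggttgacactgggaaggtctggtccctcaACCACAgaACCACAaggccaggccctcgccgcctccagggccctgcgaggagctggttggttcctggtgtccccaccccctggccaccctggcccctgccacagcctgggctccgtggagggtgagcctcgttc

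Of the other windows, the proximal Zbtb7b window held the RUNX letters once, 89 bases before the start (chr3:89387672-89387921, minus strand). It is shown with the letters in capitals, read on the other strand as TGTGGT.
Zbtb7b proximal: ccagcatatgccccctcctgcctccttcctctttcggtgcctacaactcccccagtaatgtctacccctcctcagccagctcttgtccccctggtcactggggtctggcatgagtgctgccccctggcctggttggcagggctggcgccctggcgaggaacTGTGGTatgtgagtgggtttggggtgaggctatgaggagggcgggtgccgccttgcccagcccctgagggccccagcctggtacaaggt

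The Cd8a window, both Runx1 windows, the distal Zbtb7b window and the proximal Runx3 window held none of the RUNX letters, and none of the 7 windows held the TCF letters. This says only that these letters are not in these windows.

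Other genes of the pathway were read from lists. Between genotypes before transplant, 14.2% of all genes tested were called, 8.52% higher and 5.65% lower. Among 9 CBF and RUNX partners, Hipk1, a kinase that modifies RUNX complexes, rose in TCF-1 cKO before transplant (log2 fold change 1.71, adjusted p = 0.0132), and the other 8 were not called by edgeR. Those with the next lowest p values were the corepressor Cbfa2t2 (1.04, adjusted p = 0.0704), the kinase Hipk2 (1.25, 0.0771) and Cbfb, which encodes CBF beta (1.14, 0.0829). The list median was 1.04 against -0.11 over all genes. DESeq2 called 6 of the 9 in this comparison and voom with limma 1. After transplant edgeR called 0 of 9, with 2 at an unadjusted p under 0.05, where it called 6.65% of all genes. DESeq2 and voom also called 0 of the 9. The lowest p values were those of Hipk1 (-0.61, adjusted p = 0.116), the corepressors Tle3 (-0.60, 0.123) and Tle4 (-0.78, 0.216) and Runx2 (-0.39, 0.258).

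Of the CD4 lineage factors and factors of the Cd4 silencer and enhancer, 6 of 23 tested rose in TCF-1 cKO before transplant and 0 fell, where 14.2% of all genes were called and 8.52% were higher. Ikzf1, Ikzf3 and Ets1 are also expressed by B cells, of whose 13 markers 7 rose in the same comparison. Ets1, a T cell transcription factor, rose by 1.35 (adjusted p = 0.0135), the Ikaros family factors Ikzf1 and Ikzf3 by 0.83 and 0.89 (adjusted p = 0.0295 for each) and the chromatin remodeller Chd4 by 0.98 (adjusted p = 0.0356). The list median was 0.44. After transplant edgeR called 3 of 23, DESeq2 10 and voom with limma 8, where edgeR called 6.65% of all genes and 3.13% as lower. The 3 that fell were Ikzf3 by 1.23 (adjusted p = 0.0208), Tox, which is needed for CD4 lineage development, by 1.19 (adjusted p = 0.0208) and Ets1 by 0.84 (adjusted p = 0.0389). Chd4 followed at -0.71 (adjusted p = 0.0582), and the list median was -0.58 against 0.09 over all genes. Of the 12 T cell markers 9 fell in the same comparison, and their part was not tested.

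Of the CD8 lineage and cytotoxic genes, 3 of 19 rose and 0 fell before transplant, a share near the 14.2% of all genes called (8.52% higher): the granzyme Gzma by 1.59 (adjusted p = 0.00575), the receptor Klrk1 by 1.81 (adjusted p = 0.0457) and the death ligand Fasl by 1.73 (adjusted p = 0.0464), while Klrc1 stood at 1.79 (adjusted p = 0.0688). After transplant 7 of 19 fell (12 called by DESeq2 and 9 by voom with limma), where 3.13% of all genes were lower, among them the chemokine Ccl5 by 1.65 (adjusted p = 0.00805), perforin Prf1 by 1.54 (adjusted p = 0.011), the receptor Klrc1 by 2.01 (adjusted p = 0.0176) and the granzyme Gzmk by 1.41 (adjusted p = 0.0208). The list medians were 0.56 before and -0.92 after transplant. Gzma, Prf1 and Eomes are also on the NK cell list.

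Of 11 CD4 helper genes tested, 1 was lower and 1 higher before transplant. Over all genes 14.2% were called, 8.52% higher and 5.65% lower. The folate receptor Izumo1r fell by 2.30 and Bcl6, the factor of follicular helper cells, rose by 1.07 (adjusted p = 0.00418 and 0.029, edgeR). Next were Cxcr5 (0.56, adjusted p = 0.0631) and Rora (1.18, adjusted p = 0.141). Bcl6 and Cxcr5 are also expressed by B cells, whose markers were high in these libraries. After transplant 6 of 13 fell and 0 rose, where 3.13% of all genes were lower, among them the chemokine receptor Cxcr5 by 2.66 (adjusted p = 0.000561), Izumo1r by 1.68 (adjusted p = 0.0085), the inhibitory receptor Ctla4 by 1.24 (adjusted p = 0.0208) and the costimulator Icos by 1.12 (adjusted p = 0.0314). The medians were 0.03 before and -0.88 after transplant. In the same libraries 9 of 12 T cell markers were lower, and their part in these falls was not tested.

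Across the 12 libraries, the genes most like each member were ranked by Pearson's r of log2 CPM among 9070 genes, as a description over points that share the stage difference. For Cd4 these were Il2rb, Rom1 and Pdcd1 (r = 0.988, 0.987 and 0.986). For Cd8a they were B3gnt8, Fcrl5 and Igkv6-20 (0.985, 0.980 and 0.979), and for Cd8b1 the MHC class II genes H2-DMb1 and H2-DMb2 and the B cell receptor gene Cd79a (0.992, 0.9904 and 0.989). B cell genes and the CD8 chains were both high before and low after transplant. For Zbtb7b the genes were Sdcbp2, Mink1 and Eva1b (0.959, 0.926 and 0.925), for Runx3 Usp38, Spata13 and Cblb (0.936, 0.923 and 0.918) and for Runx1 Kat14, Oat and Rrp36 (0.926, 0.909 and 0.898). Among the members, Cd8a and Cd8b1 had r = 0.962, Cd4 and Cd8a -0.93, Cd4 and Zbtb7b 0.797 and Cd4 and Runx3 0.524.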

How the data were processed

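Sorted T cells were lysed in TRizol, and RNA was amplified with SMARTseq HT and sequenced as paired ends. The authors ran kallisto 0.46.2, which gives the deposited estimated counts per transcript, not normalized, and the deposited TPM, derived from counts and effective lengths. The labels name mm9. By identifier, 116428 of 117497 transcripts (99.1%) matched GENCODE M21, and all coordinates follow that annotation (GRCm38). Estimated counts were summed per gene and rounded. With R 4.3.3, edgeR 4.0.16 (TMM, its filter on low counts, quasi-likelihood test) was fitted to all genes, with Benjamini-Hochberg adjustment and a threshold of 0.05. Genotypes were compared in 6 libraries per stage, transplant and interaction in all 12. Library ratios used a pseudocount of 0.5 and exact two-sided permutation tests, between stages permuted within genotype. The scripts were first tested on simulated data. DESeq2 1.42.0, limma 3.58.1 (voom, and log2(TPM + 1) or + 0.1) and other scalings were alternatives. The members, gene lists and naming rule (all members, up to 4 genes with the smallest adjusted p from each list, the 3 most alike genes) were chosen with earlier results of these data known. Other marker lists (plasmacytoid dendritic cell, macrophage, erythroid, gamma delta) are given among the other observations. Log2 CPM for likeness had a prior count of 2 and a mean of at least 10 CPM. Same-numbered libraries were not treated as paired.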

Additional observations from a re-analysis of the deposited data

Results flagged for a closer look

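Cd8a and Runx3 had a called interaction of genotype and transplant, as did 28.6% of the 21434 genes tested. The interaction was 2.24 for Cd8a and -1.22 for Runx3 on the log2 scale (adjusted p = 0.0117 and 0.0213 from edgeR). It was called in 9 of 9 other settings for Cd8a and in 5 of 9 for Runx3. Of the 12 fits without 1 library, it was called in 12 for Cd8a and 10 for Runx3. Cd8a was lower in all 3 TCF-1 cKO libraries before transplant and higher in all 3 after it.

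The log2 Cd4 to Cd8a ratio moved in opposite directions: every TCF-1 cKO library was above every WT library before transplant, by 0.66 in the mean, and below after it, with a difference of -2.45 (-1.62 without WT Post-Tx replicate 3). This difference between the stages was not tested. The order before transplant holds only for Cd4 values that include the short retained-intron transcript, which was higher in TCF-1 cKO. With the TPM of the transcript that encodes CD4 set against Cd8a TPM, the genotypes overlapped before transplant. Cd8b1 was lower in every TCF-1 cKO library before transplant (log2 fold change -0.39) and higher in every one after it (0.53). The test of that difference is its interaction, with an adjusted p of 0.0534 from edgeR. Per CD3 chain count, Cd8b1 was higher in every TCF-1 cKO library at both stages (0.53 before and 1.51 after), so the directions were not opposite on that scale. Groups of 3 libraries were not examined for single libraries far from the others.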

How the results depend on the processing

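Between genotypes before transplant, 1 of the 6 genes was called, and 2 with upper-quartile factors, 0 with limma on log2(TPM + 1) or log2(TPM + 0.1), 0 with all 12 libraries in 1 fit, and 0 to 1 without 1 library. After transplant 1 was called, and 0 with upper-quartile factors, library totals alone (added after seeing the data), limma on either TPM scale or all 12 libraries in 1 fit, 3 with DESeq2, 3 with the replicate block and 0 to 2 without 1 library. For the interaction 2 were called, 3 with voom and limma (Cd8b1 added), 1 with limma on either TPM scale, and 1 to 3 without 1 library. Upper-quartile factors moved the median of all genes by -0.36 before and 0.28 after transplant, -0.29 and 0.38 with transplant in WT and TCF-1 cKO, and 0.67 for the interaction. Library totals alone moved it by 0.40, 0.49 and 0.40 after transplant, with transplant in TCF-1 cKO and for the interaction, and DESeq2 size factors by -0.14 for the interaction. Genes called higher and lower were 1451 and 962 before transplant (636 and 2070 with upper-quartile factors), 679 and 604 after it (687 and 111, and 751 and 74 with totals), 2483 and 2223 with transplant in WT (1852 and 3216), 3037 and 2676 in TCF-1 cKO (4485 and 1644, and 5075 and 1434) and 3665 and 2469 for the interaction (4865 and 720, and 4051 and 1228). The cause of these changes was not tested.

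Cd4 before transplant turned to 0.20 and 0.21 on the log2(TPM + 1) and log2(TPM + 0.1) scales and ranged from -0.66 to 0.0051 without 1 library, the latter without WT Pre-Tx replicate 2. Runx1 after transplant turned to 0.22 with upper-quartile factors, 0.33 with library totals alone, 0.32 and 0.34 on the TPM scales, and ranged from -0.34 to 0.0514 without 1 library. With transplant, Runx1 turned to -0.085 in WT with upper-quartile factors and to 0.45 and 0.47 in TCF-1 cKO on the TPM scales, and Runx3 in TCF-1 cKO to 0.10 with upper-quartile factors, 0.20 with library totals alone and 0.33 and 0.34 on the TPM scales. The interaction of Cd4 turned to 0.14 with upper-quartile factors, that of Zbtb7b to 0.47 with upper-quartile factors, 0.21 with library totals alone and 0.10 and 0.12 on the TPM scales, and that of Runx1 to 0.27 and 0.29 on the TPM scales.

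Of the ratios, the stage difference of Cd8b1 to Cd8a was -0.10 with protein-coding transcripts alone and 1.04 with the replicate block (exact permutation p = 0.0625 by sign flips), and 0.67 (without WT Post-Tx replicate 3) to 1.29 without 1 library. Runx3 to Zbtb7b after transplant was -0.0651 with TPM. Per CD3 chain count, Cd8a before transplant was 0.24 over Cd3e alone, and Cd4 after transplant -0.0558 to 0.066 without 1 library. The replicate block paired libraries by number only: the correlation of same-numbered deviations ranged from -0.27 to 0.25, and it moved only the count after transplant by over 1.5 times, where it added Zbtb7b (-0.74, adjusted p = 0.0488) and Runx3 (-0.68, adjusted p = 0.0384).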

Other observations

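Markers of further cell types were summed in each library. Of all genes tested, 8.52% were called higher in TCF-1 cKO before transplant and 3.52% after it. The 8 plasmacytoid dendritic cell markers summed to 1893 to 2350 CPM in TCF-1 cKO and 2486 to 2747 CPM in WT Pre-Tx libraries, and to 280 to 329 CPM in TCF-1 cKO and 224 to 246 CPM in WT Post-Tx libraries. Siglech, a marker of these cells, was 2.39, 4.34 and 4.41 CPM in TCF-1 cKO Post-Tx libraries and under 1 CPM in every WT Post-Tx library. It was the only 1 of the 6 tested that edgeR called after transplant. Of those not called, Bst2 and Runx2 had log2 fold changes of -0.61 and -0.39. Ccr9, Ly6d and Tcf4 stood at 0.55, 0.62 and 0.48. Klk1 and Cox6a2 were under 1 CPM in every Post-Tx library of both genotypes. The 15 macrophage and monocyte markers summed to 3683 to 4753 CPM in TCF-1 cKO and 3437 to 4678 CPM in WT Pre-Tx libraries, with 4 of 15 higher in TCF-1 cKO. After transplant they summed to 3218 to 3488 CPM in TCF-1 cKO and 1491 to 2629 CPM in WT. There 0 of 15 were called, and the list median log2 fold change was 0.27 against 0.09 over all genes. The 10 erythroid markers summed to 4547 to 15187 CPM in TCF-1 cKO and 10951 to 26266 CPM in WT Pre-Tx libraries, and after transplant to 1668 to 5791 CPM in TCF-1 cKO and 714 to 1490 CPM in WT, with 5 of 10 higher in TCF-1 cKO. The 6 gamma delta T cell markers found summed to 31.2 to 93.5 CPM before and 37.2 to 63.0 CPM after transplant. The part of these cells in the values of Cd4, Cd8a, Runx1 and Runx3 was not tested.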
